A study of Mus musculus with 23 samples.

Results

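The constitutive proteasome subunits were followed in RNA-seq libraries of young mice, made from scraped proximal small intestine. The set was chosen by name. It holds the 14 subunits of the core particle (7 of the alpha ring and 7 of the beta ring), 17 subunits of the regulatory particle (6 ATPases, 3 other base subunits and 8 lid subunits) and the activators Psme3 and Psme4. The inducible subunits of the immunoproteasome were left out. All 33 genes matched 1 row each of the 55416 gene rows, and all 33 passed the filter on low counts that left 13405 genes for testing. They held between 32450 and 42542 counts per library.

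The mice were C57BL/6JRccHsd, labelled female, 42 days old, with no genetic change named. From day 21 they had eaten for 3 weeks either a galactose diet, in which galactose and glucose each gave 16% of the energy (n = 12 mice), or a glucose diet, in which glucose gave 32% (n = 11 mice). The diets were otherwise alike. The galactose diet therefore also held less glucose. Each library came from a separate mouse, and libraries held 15382583 to 17174721 counts in genes. The comparison asks what swapping part of the dietary glucose for galactose after weaning does to intestinal expression.

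The proteasome is the protease of the cytosol and nucleus that breaks down proteins tagged with ubiquitin. Its core particle is a barrel of stacked rings: alpha subunits form the gated outer rings and beta subunits the inner rings, of which Psmb5, Psmb6 and Psmb7 carry the catalytic sites. The regulatory particle caps the barrel. Its base holds the ATPases that unfold the substrate, and its lid removes the ubiquitin chain. In the small intestine, where the epithelium is renewed within days and lies next to many lymphocytes, the inducible subunits Psmb8, Psmb9 and Psmb10 can take the places of the catalytic ones.

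Markers of absorptive enterocytes were abundant in every library, while the defining ileal marker was near 0. The summed level of 8 enterocyte markers was 58100 to 77940 CPM (counts scaled to library size) on galactose and 53530 to 82240 CPM on glucose. The ileal marker Fabp6 had 64 counts over all 23 libraries. A pair of galactose libraries stood apart. Galactose replicate 12, labelled female, held 225 counts of 4 Y-linked genes, where any other library held at most 1. It held 4 counts of Xist, where any other library held at least 778. These counts go against the label female. Whether its diet label holds could not be checked here, and the library was kept as labelled. Galactose replicate 7 had the lowest mean level of the subunits of any library, and results are given without it where they move. It stood apart by the level of these same genes, so leaving it out raises the mean level of the subunits on galactose. Calls made without it are therefore a description. In scrapings, fewer cells of a type and less RNA per cell cannot be told apart.

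The subunits of the particle itself lay slightly higher on galactose, and no single gene passed the test. The activators of the set, Psme3 and Psme4, lay slightly lower in the fit of diet alone, neither at an unadjusted p under 0.05 by edgeR. Of the 33 genes 31 had a positive log2 difference (galactose minus glucose), against 49.5% of all genes tested. The median over the 33 was 0.16, against -0.00174 over all genes tested. It was 0.04 with a library's length slope (its shift toward short or long transcripts) as a covariate, and 0.03 with surrogate variables, that is, covariates estimated from the expression values. By edgeR's quasi-likelihood test 0 of 33 passed after Benjamini-Hochberg adjustment over all genes, as did 0% of the 13405. At an unadjusted p under 0.05 there were 22 subunits, all higher on galactose, where 8.63% of all genes tested were higher at that level, and 0 were lower, against 5.72%. DESeq2 called 6 subunits, all higher, where it called 0.985% of all genes tested and 0.798% as higher. limma-voom with sample quality weights called 8, all higher, against 1.25% of all genes and 1.06% as higher. Without galactose replicate 7, set apart by its level of these same genes, edgeR called 8, all higher, against 1.64% and 1.31%. The median was then 0.18. Without galactose replicate 12 edgeR called 0 and the median was 0.15. Leaving out both gave 12 calls, all higher, against 2.4% of all genes and 1.92% as higher, and a median of 0.18.

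**Figure D1:**
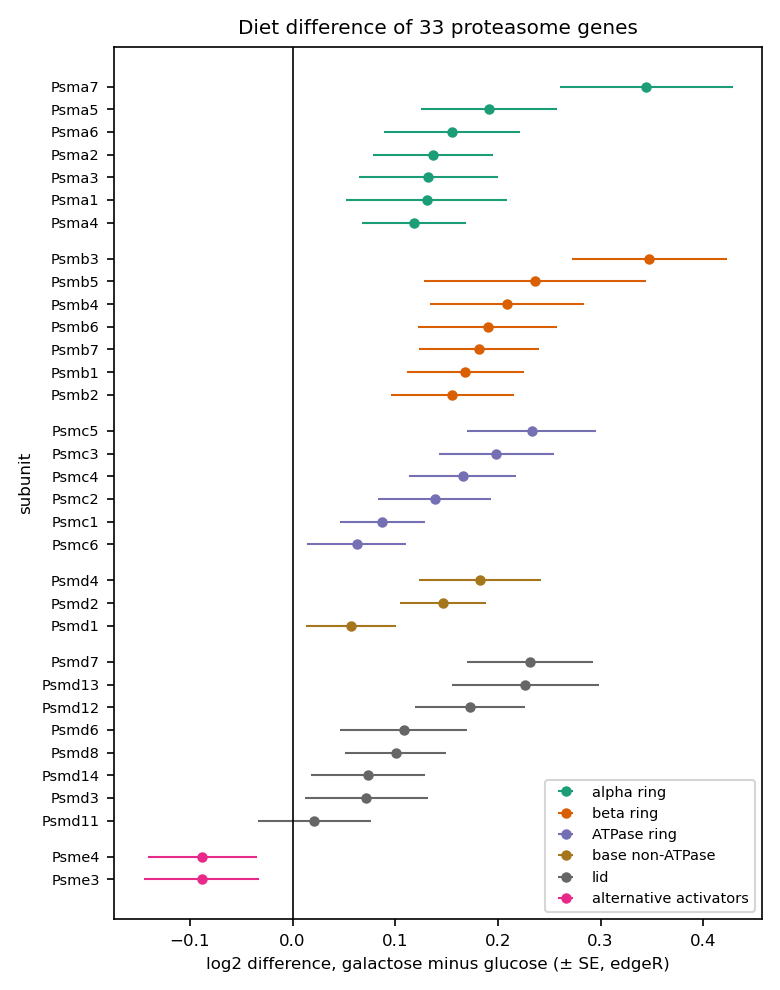
Log2 difference of each of the 33 genes (x axis, galactose minus glucose, points with ± SE from edgeR), grouped by their place in the particle. The 31 genes of the core and regulatory particles lie to the right of 0, and Psme3 and Psme4 lie at -0.09.

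The beta ring had the highest median of the classes, 0.19, and Psmb3 the largest difference of all 33 genes. Psmb3 (ENSMUSG00000069744) is a beta subunit without a catalytic site of its own. On galactose its level was 52.2 CPM in the lowest library, 79.1 at the median and 90.3 in the highest (77.1 ± 11.2 CPM, SD, n = 12). On glucose these were 50.01, 60.7 and 69.9 CPM (60.6 ± 5.93 CPM, n = 11). The groups overlapped: 9 of 12 galactose libraries lay above every glucose library, replicates 1 and 12 lay within the glucose range, and replicate 7, at 52.2 CPM, lay among the lowest glucose libraries. The log2 difference was 0.35 ± 0.08 (SE), a fold of 1.27, with p = 9.23e-05 and adjusted p = 0.135 by edgeR, the fifth smallest p of all genes tested. Since Psmb3 was singled out with its difference known, its values are a description. Without galactose replicate 7 the difference was 0.39 (adjusted p = 0.0170 by edgeR). DESeq2 gave 0.34 with an adjusted p of 0.0116, and limma-voom with quality weights 0.39 with 0.0323. The difference was 0.15 (adjusted p = 0.738 by edgeR) with the length slope as a covariate and 0.12 (adjusted p = 0.656) with surrogate variables.

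Set against the other 32 subunits of the same library, Psmb3 was shifted as well. Its log2 CPM minus the mean of the others ran on galactose from -0.0731 through a median of 0.23 to 0.36. On glucose it ran from -0.19 through -0.00464 to 0.11. The value was above that of every glucose library in 9 of 12 galactose libraries, and the lowest galactose values belonged to replicates 7 and 1. The difference of the group means was 0.20, and against the other beta subunits alone it was 0.16. Psmb3 did not stand alone in this. The same calculation for each of the 33 genes put Psmb3 at 0.20 and Psma7 right behind it at 0.20 (0.201 and 0.196), followed by Psmc5 and Psmd7 at 0.09. At the other end stood Psme3 and Psme4, each at -0.24. Neither the gap between Psmb3 and Psma7 nor that between Psmb3 and the rest was tested.

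**Figure D2:**
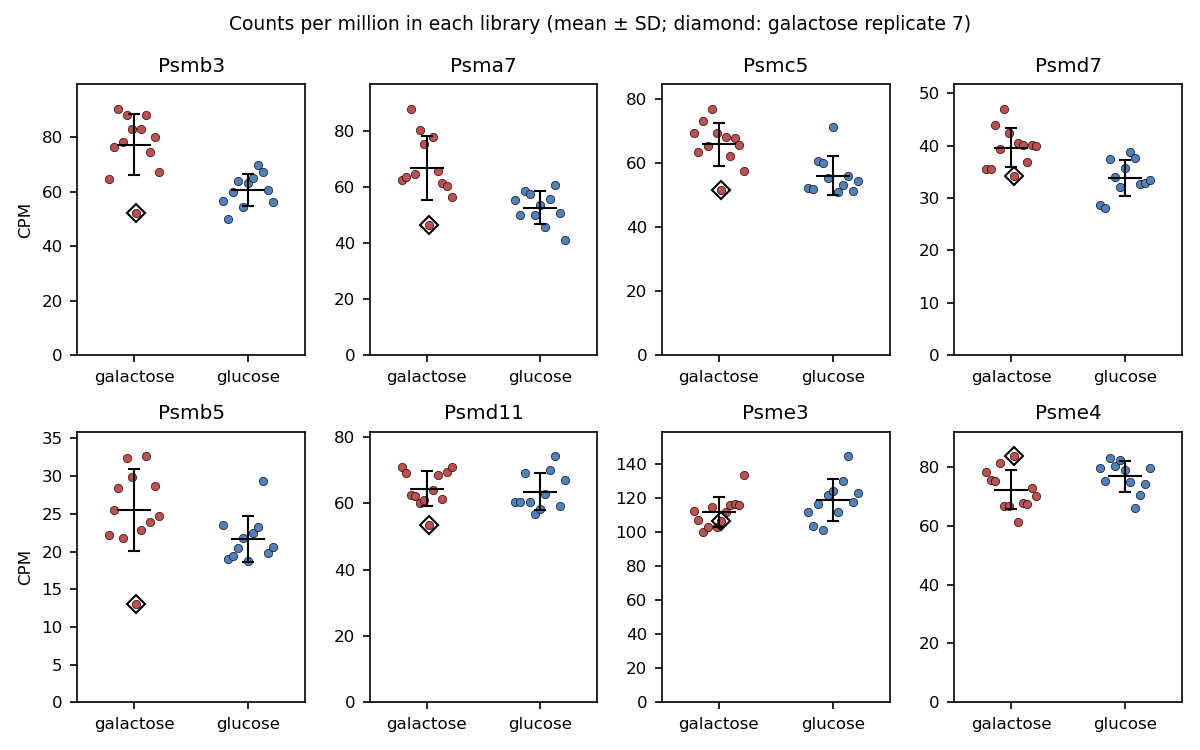
CPM (y axis, from 0) of 8 genes in each library, with the mean ± SD of each diet. Psmb3, Psma7, Psmc5 and Psmd7 are the 4 genes with the largest upward shift relative to the other subunits, and the diamond marks galactose replicate 7, which had 52.2 CPM of Psmb3 and 13.1 CPM of Psmb5.

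The 3 catalytic subunits had positive differences of 0.18 to 0.24, with an overlap of the groups in each. With the length slope as a covariate Psmb6 stood at 0.02, Psmb7 at 0.05 and Psmb5 at -0.0254, and with surrogate variables Psmb5 stood at -0.000786. Psmb6, which cuts after acidic residues, had 60.3, 82.4 and 99.4 CPM on galactose (lowest, median, highest) and 59.3, 72.8 and 81.6 CPM on glucose. Its log2 difference was 0.19 ± 0.07 (p = 0.00945, adjusted p = 0.210 by edgeR). For Psmb7, which cuts after basic residues, the galactose libraries ran from 41.8 through 51.0 to 57.6 CPM and the glucose libraries from 39.4 through 43.2 to 52.6 CPM, a log2 difference of 0.18 ± 0.06 (p = 0.00433, adjusted p = 0.180). The glucose median of Psmb7 was exceeded in 11 of 12 galactose libraries. Its exons overlap those of Nek6 on the other strand over 11.8% of their bases in the annotation used, and without a stated strand setting reads there cannot be assigned with certainty. Psmb5, which cuts after hydrophobic residues, was the least even gene of the set, with a coefficient of variation of 20.2% over all libraries. It ran from 13.1 through 25.1 to 32.6 CPM on galactose and from 18.7 through 20.6 to 29.3 CPM on glucose (log2 difference 0.24 ± 0.11, p = 0.0382, adjusted p = 0.323). The low end on galactose was replicate 7 and the high end on glucose was replicate 9. Without galactose replicate 7 its difference was 0.30, and it was not called. The remaining beta subunits Psmb1, Psmb2 and Psmb4 stood at 0.17, 0.16 and 0.21, so that all 7 of 7 had an unadjusted p under 0.05.

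The inducible partners of these subunits also had positive differences in the fit of diet alone, of which Psmb9 (-0.0286) and Psmb10 (-0.0196) turned negative with surrogate variables as covariates. Psmb8, the counterpart of Psmb5, averaged 154 ± 18.6 CPM with galactose against 124 ± 21.6 CPM without (SD, log2 difference 0.32 ± 0.09), with 0.40 ± 0.12 for Psmb9, the counterpart of Psmb6, and 0.22 ± 0.07 for Psmb10, the counterpart of Psmb7. Per base of the longest annotated transcript, the ratio of Psmb8 to Psmb5 was 2.23 to 4.14 on galactose (median 2.68) and 1.86 to 3.56 on glucose (median 2.75), so the ranges overlapped. The ratio of Psmb9 to Psmb6 was 0.188 to 0.321 on galactose (median 0.234) and 0.127 to 0.265 on glucose (median 0.216). For Psmb10 to Psmb7 it was 6.99 to 10.5 on galactose (median 9.37) and 7.44 to 10.2 on glucose (median 8.93). The ranges of all 3 pairs overlapped, and the galactose median was the lower one for Psmb8 to Psmb5 and the higher one for the others. The longest transcripts have 1907 bases for Psmb8 and 899 for Psmb5, 2884 for Psmb9 and 966 for Psmb6, and 1311 for Psmb10 and 2849 for Psmb7. Genes whose main transcript is shorter are understated, so the size of each ratio depends on these lengths. As divisors these lengths are the same for both diets. A library's shift toward short or long transcripts can still enter the comparison of the diets, and its part in these ratios was not tested.

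Promoter windows give the sequence context of these genes. The RefSeq table for build GRCm38.p6, with 250 bases before and 50 after the annotated start site, held windows for 27 of the 33 genes. The catalytic subunit Psmb7 had no window and was not searched, nor were Psmb1, Psmb2, Psmc3, Psmd3 and Psmd7. The transcription factor Nfe2l1 drives proteasome genes through antioxidant response elements, whose core is TGACNNNGC. That core, searched on both strands, was in the windows of 5 of the 27 genes, that is in 17.2% of 29 windows, and in 12.4% of all 32851 windows of the table. Those of the catalytic subunits Psmb5 and Psmb6 and of Psmc6, Psmd12 and Psme4 are shown with up to 10 bases on either side, core in capitals, read 5′ to 3′ in the direction of the gene; in Psmc6, Psmd12 and Psme4 the core lies on the other strand and so appears as its reverse complement:
Psmb5: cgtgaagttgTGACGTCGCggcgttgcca
Psmb6: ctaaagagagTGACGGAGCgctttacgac
Psmc6: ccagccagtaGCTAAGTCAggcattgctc
Psmd12: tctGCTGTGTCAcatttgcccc
Psme4: cgctgcggctGCAGCGTCAccagaagagc
The differences of the 5 genes ran from -0.09 (Psme4) to 0.24 (Psmb5), below those of Psmb3 and Psma7. The windows of Psmb3 (chr11:97703184-97703483, plus strand) and Psma7 (chr2:180042415-180042714, minus strand, GRCm38.p6) are printed whole because these genes had the largest differences. Capitals mark CCAAT, searched on both strands, of which Psmb3 holds 2 and Psma7 holds 1:
Psmb3: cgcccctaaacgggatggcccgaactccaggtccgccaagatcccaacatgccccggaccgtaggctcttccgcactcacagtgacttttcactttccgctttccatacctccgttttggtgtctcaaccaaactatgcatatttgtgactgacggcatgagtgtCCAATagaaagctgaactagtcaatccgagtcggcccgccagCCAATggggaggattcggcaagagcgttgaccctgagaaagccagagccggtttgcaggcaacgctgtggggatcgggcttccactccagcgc
Psma7: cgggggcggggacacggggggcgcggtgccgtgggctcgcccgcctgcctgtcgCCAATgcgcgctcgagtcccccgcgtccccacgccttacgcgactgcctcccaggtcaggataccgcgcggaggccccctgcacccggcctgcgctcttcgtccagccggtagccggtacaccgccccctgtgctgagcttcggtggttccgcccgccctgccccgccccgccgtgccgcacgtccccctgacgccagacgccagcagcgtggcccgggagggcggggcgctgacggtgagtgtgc
CCAAT was in 37.9% of the subunits' windows and in 37.4% of all windows. A match of letters is a description of the window and says nothing of binding.

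The alpha ring forms the gate of the barrel and is the surface on which the caps dock. All 7 of 7 members had a positive difference (median 0.14), 5 with an unadjusted p under 0.05. Psma7 (ENSMUSG00000027566) ran from 46.6 through 64.1 to 87.8 CPM on galactose and from 41.2 through 53.5 to 60.9 CPM on glucose. In 9 of 12 galactose libraries it was above every glucose library, and replicate 7 was again the lowest on galactose. Its log2 difference was 0.34 ± 0.08, a fold of 1.27 (p = 0.000348, adjusted p = 0.138 by edgeR), and 0.38 without galactose replicate 7 (adjusted p = 0.0298). The other 6 alpha subunits stood between 0.12 (Psma4) and 0.19 (Psma5). Psma1 had the largest p of the ring: 59.2, 78.9 and 88.9 CPM on galactose against 56.4, 69.9 and 92.4 CPM on glucose (0.13 ± 0.08, p = 0.107, adjusted p = 0.447). Its highest single value was in a glucose library.

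The 6 ATPases of the base, which unfold and thread the substrate, all had positive differences (median 0.15), 5 with an unadjusted p under 0.05. Psmc5 came first: 51.7, 66.8 and 76.8 CPM on galactose and 50.8, 54.4 and 71.1 CPM on glucose (0.23 ± 0.06, p = 0.000952, adjusted p = 0.138 by edgeR). In 11 of 12 galactose libraries it exceeded the glucose median, yet only 2 of them exceeded every glucose library. Psmc3 followed at 0.20 ± 0.06, Psmc4 at 0.17 ± 0.05 and Psmc2 at 0.14 ± 0.06, with Psmc1 at 0.09 ± 0.04. Psmc6 had the largest p of the ring, with 48.7, 51.7 and 57.6 CPM on galactose and 44.8, 48.8 and 59.9 CPM on glucose (0.06 ± 0.05, p = 0.207, adjusted p = 0.569). Its glucose libraries reached both lower and higher than the galactose ones. Among the other base subunits, Psmd2, the scaffold that binds ubiquitin-like domains, had one of the narrowest spreads of the set. It ran from 85.9 through 101.5 to 107 CPM on galactose and from 84.6 through 92.2 to 99.5 CPM on glucose (0.15 ± 0.04, p = 0.00161, adjusted p = 0.140). All galactose libraries but replicate 7 (11 of 12) lay above every glucose library. The ubiquitin receptor Psmd4 stood at 0.18 ± 0.06. The scaffold Psmd1, with 49.96, 54.1 and 61.5 CPM on galactose and 49.3, 52.5 and 58.7 CPM on glucose, stood at 0.06 ± 0.04 (p = 0.207, adjusted p = 0.568).

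The lid, which holds the deubiquitinating enzyme Psmd14, was the most mixed class of the particle. All 8 of 8 members had positive differences (median 0.10), but 3 had an unadjusted p under 0.05. Psmd7, the partner of Psmd14 in the lid, was the only gene of the 33 above its glucose median in all 12 of 12 galactose libraries. Its levels were 34.3, 40.0 and 47.0 CPM on galactose and 28.1, 33.5 and 38.7 CPM on glucose (0.23 ± 0.06, p = 0.000804, adjusted p = 0.138 by edgeR). Psmd13 (0.23 ± 0.07) and Psmd12 (0.17 ± 0.05) were the others of that kind, and Psmd13 shares 10.1% of its exon bases with Sirt3 on the other strand. Psmd14 itself stood at 0.07 ± 0.06, Psmd8 at 0.10 ± 0.05 and Psmd6 at 0.11 ± 0.06. Psmd3, at 0.07 ± 0.06, exceeded its glucose median in only 5 of 12 galactose libraries. Psmd11 had the largest p of all 33 genes: 53.4, 63.1 and 70.9 CPM on galactose, and 56.7, 60.4 and 74.1 CPM on glucose (0.02 ± 0.05, p = 0.701, adjusted p = 0.890). Its groups covered almost the same range.

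The activators Psme3 and Psme4, which bind the core in place of the regulatory particle and act chiefly in the nucleus, were the only members with negative differences in the fit of diet alone. Psme3 had 100.2, 112 and 133 CPM on galactose and 101 (lowest), 117 and 144 CPM on glucose, at -0.09 ± 0.06 (p = 0.128, adjusted p = 0.477 by edgeR). Replicate 12 was the 1 of 12 galactose libraries that exceeded the glucose median of Psme3. Psme4 had 61.3, 71.5 and 83.5 CPM on galactose and 66.1, 78.8 and 82.8 CPM on glucose, at -0.09 ± 0.05 (p = 0.109, adjusted p = 0.451). Its highest library of all 23 was galactose replicate 7. With the length slope of each library or surrogate variables as covariates, Psme4 turned to 0.0115 and 0.00249 while Psme3 stayed negative, and 3 and 8 genes of the particle turned negative. Neither activator passed at an unadjusted p of 0.05.

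Across single libraries the genes of the particle moved largely together. A galactose library held between 6 and 31 of the 33 genes above their glucose medians, and 11 of 12 held at least 26. A glucose library held between 5 and 28, and 2 of 11 (replicates 8 and 9) held at least 26. Galactose replicate 7 was the one with 6. It was the lowest galactose library for 25 of 33 genes and the lowest of all 23 libraries for 11. The mean log2 CPM over the 33 genes ran from 5.78 (replicate 7) through 6.08 to 6.20 on galactose and from 5.83 through 5.92 to 6.08 on glucose. It was above every glucose library in 6 of 12 galactose libraries and above the glucose median in 11 of 12. For each of the 33 genes taken alone the groups overlapped, as they did for all genes tested (0% without overlap).

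**Figure D3:**
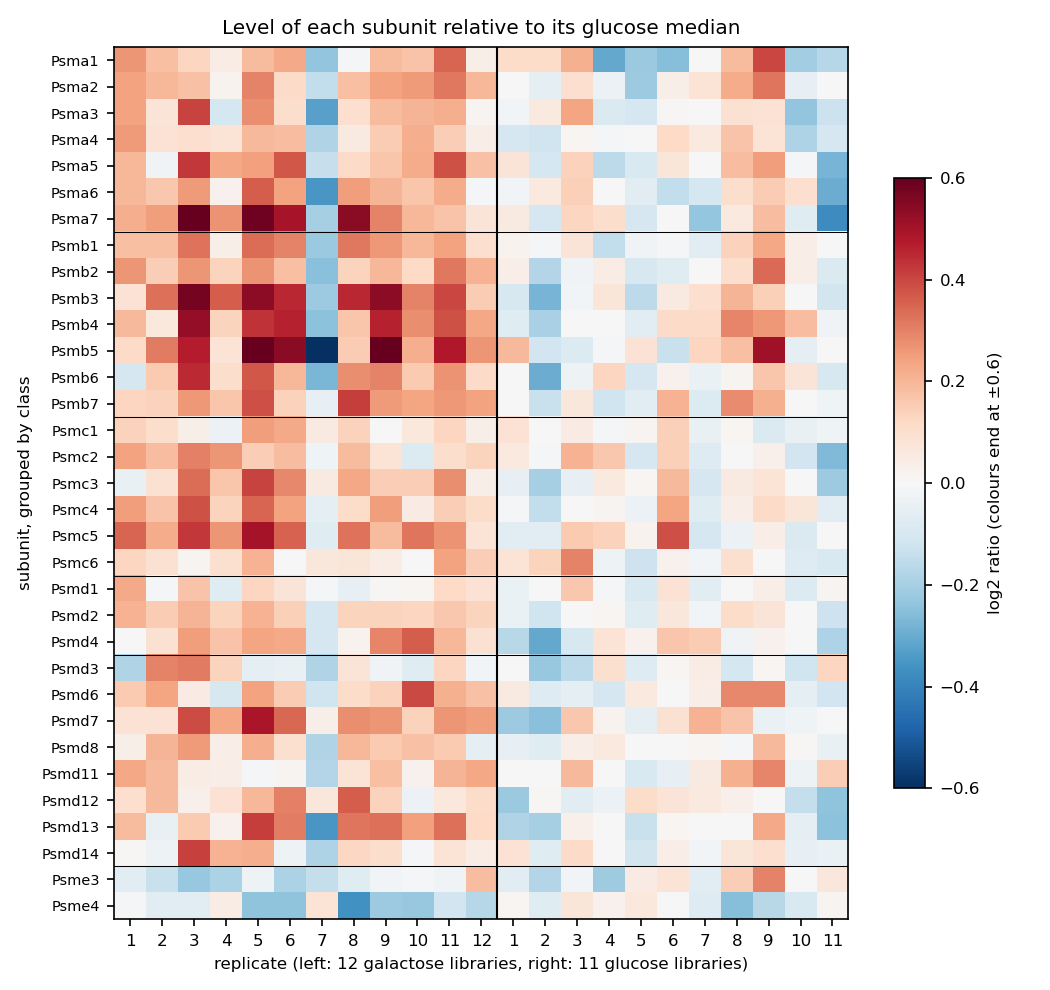
Log2 ratio of each subunit (rows, grouped by class) to its own median over the glucose libraries, in each of 23 libraries (columns). Galactose replicate 7 is blue in most rows of the particle and glucose replicate 9 is red in many, while the activators at the bottom run the other way in most galactose libraries.

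Transcript length moved with these values. For each library a length slope was taken by regressing, over all tested genes, the deviation of log2 CPM from the gene's average on log2 transcript length. A negative slope means that short transcripts are relatively more abundant. It ran from -0.12 through -0.04 to 0.08 on galactose and from -0.06 through 0.05 to 0.09 on glucose, and was negative in 8 of 12 and 3 of 11 libraries. The longest annotated transcript of the 33 genes had a median of 1883 bases, against 3228 for all tested genes, and 31 of 33 were shorter than that. The exceptions were Psmc2, with 3466 bases and a difference of 0.14, and Psme4, with 6491 bases and -0.09. With all tested genes cut into 10 equal bins by length, the median log2 difference in the 3 shortest was 0.12, 0.08 and 0.04, while the 7, 8 and 8 subunits in those bins had medians of 0.16, 0.21 and 0.17. In the fifth bin, with 7 subunits, the medians were 0.01 and 0.13. The fourth, sixth and ninth bins held 1 subunit each, at -0.09, 0.14 and -0.09, where all genes had medians of 0.03, -0.00595 and -0.07. The bins rest on the longest annotated transcript, so genes of a bin need not be alike in the length of their main transcript. Galactose replicate 7 had the highest slope of its group, 0.08. Among glucose libraries, replicate 9 had the lowest slope, -0.06, and the highest mean of the 33 genes, 6.08, with Psmb3 minus the others at -0.00464. Glucose replicate 8 had the next lowest slope, -0.02, and the highest glucose value of Psmb3 minus the others, 0.11.

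**Figure D4:**
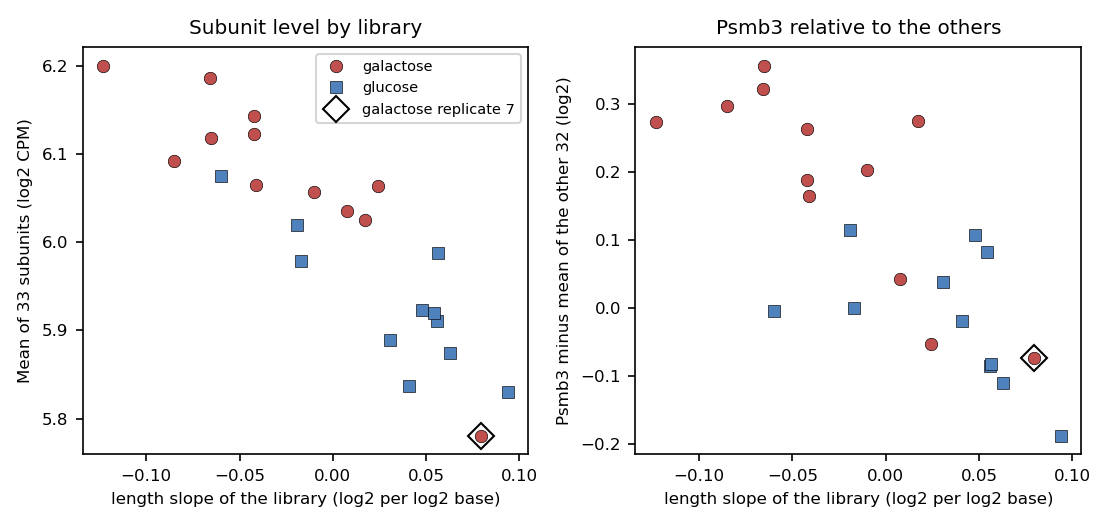
For each library, the length slope (x axis) against the mean log2 CPM of the 33 genes (left) and against the log2 CPM of Psmb3 minus the mean of the other 32 (right). In the left panel galactose replicate 7, with a slope of 0.08, has the lowest mean, 5.78, and in the right panel the glucose libraries with the lowest slopes, replicates 9 and 8, lie at -0.00464 and 0.11.

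With the length slope of each library as a covariate in the edgeR fit, 29 of 33 genes had a positive difference, the median became 0.04 (0.00427 for all genes tested), and 0 passed. Only 4 subunits then had an unadjusted p under 0.05 in the higher direction, where 3.8% of all genes did. Psmb3 stood at 0.15 (p = 0.0150, adjusted p = 0.738) and Psma7 at 0.16, again with the largest values of the set. Psmd12 stood at 0.13, Psmc5 at 0.13 and Psmd7 at 0.13. Psmb5 turned to -0.0254, Psmd11 to -0.0212 and Psmd14 to -0.0110, while Psme4 turned to 0.0115. Psme3 went to -0.15, the lowest value of the set. With 6 surrogate variables as covariates 24 of 33 genes were positive, at a median of 0.03, and Psmb3 stood at 0.12, below Psmd7 at 0.13.

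**Figure D5:**
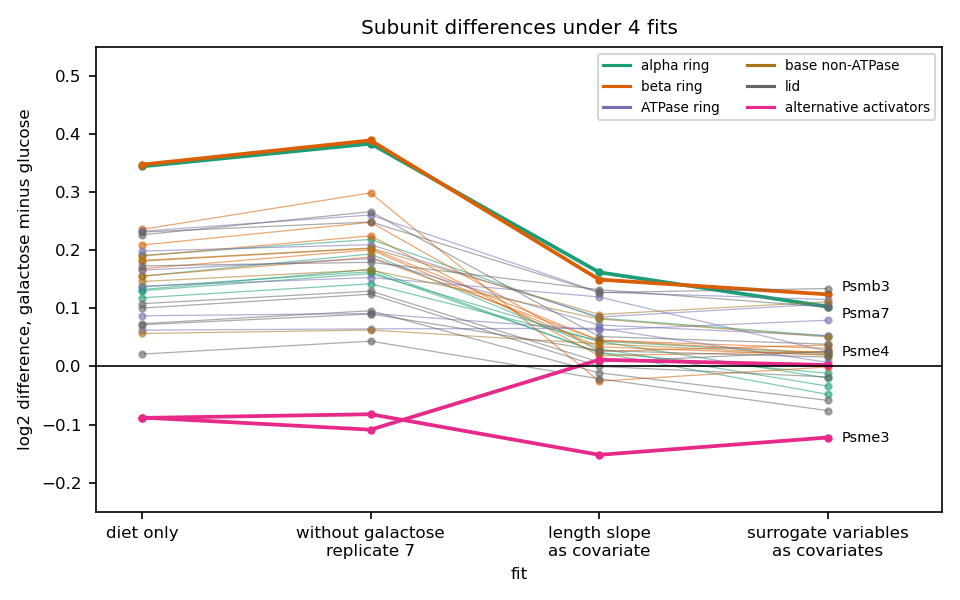
Log2 difference of each of the 33 genes (y axis, 1 line per gene, coloured by class) in 4 edgeR fits: diet only, without galactose replicate 7, and with the length slope or surrogate variables as covariates. The lines of Psmb3 and Psma7 run from 0.35 and 0.34 in the first fit to 0.12 and 0.10 in the last.

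Other genes of the pathway went their own ways by role. Of 8 assembly factors tested 6 were higher on galactose (median 0.16), 2 at an unadjusted p under 0.05. Psmd10, a chaperone of the ATPase ring, averaged 14.8 ± 1.14 CPM with galactose and 12.2 ± 1.40 CPM without (0.28 ± 0.07, adjusted p = 0.135 by edgeR), and Pomp, the maturation factor of the core, averaged 89.4 ± 9.56 CPM with it and 79.4 ± 5.79 CPM without (0.17 ± 0.06, adjusted p = 0.203). Psmd10 stood at 0.25 with the length slope as covariate. All 5 of 5 immunoproteasome genes were higher at an unadjusted p under 0.05 (median 0.24). Psme1 and Psme2, the subunits of the interferon-induced activator, stood at 0.20 ± 0.08 and 0.24 ± 0.07, unlike the activators Psme3 and Psme4. Among 17 proteins that associate with the proteasome, 8 were higher and 9 lower (median -0.02). Sem1, a small lid component, stood at 0.21 ± 0.07 and the ubiquitin shuttle Ubqln2 at -0.17 ± 0.07 (adjusted p = 0.242). The regulators of proteasome transcription did not lie higher as a list: 5 of 6 had negative differences, against 6773 of 13405 genes tested. By edgeR 0 of them had an unadjusted p under 0.05 in either direction. Nfe2l1 averaged 70.5 ± 6.15 CPM in galactose libraries and 74.4 ± 4.60 CPM in glucose libraries (-0.08 ± 0.05, adjusted p = 0.489 by edgeR). The antioxidant regulator Nfe2l2 stood at 0.12 ± 0.06 (adjusted p = 0.355). These are RNA levels, and the activity of the regulators was not tested. Of 5 ubiquitin genes 4 were higher (median 0.04), such as Ubb at 0.04 ± 0.07 and Rps27a at 0.13 ± 0.11, whose reads may be shared with near-identical copies. In these 5 lists edgeR called 0 of 41 genes tested, against 0% of all genes. DESeq2 called 2 (0.985% of all genes), limma-voom with weights called 4 (1.25%), and edgeR called 6 once galactose replicate 7 was left out (1.64%). Their counts at an unadjusted p under 0.05 were 9 higher, against 8.63% of all genes, and 1 lower, against 5.72%. The subunits made chiefly in testis and thymus, Psma8 and Psmb11, had 14 and 6 counts in all 23 libraries together.

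Markers of lymphocytes and of the interferon response mostly had positive differences, and edgeR called 0 of them. The difference was positive for 14 of 15 T cell markers, against 49.5% of all genes tested, with a summed level of 163 to 404 CPM on galactose and 63.1 to 311 CPM on glucose. For interferon response genes it was positive in 13 of 13, at summed levels of 953 to 2657 CPM and 487 to 1607 CPM. At an unadjusted p under 0.05 there were 9 T cell markers and 8 interferon response genes, all higher, against 8.63% of all genes tested. The summed levels of the diets overlapped for both lists. All 8 of 8 smooth muscle markers were lower, with summed levels of 44.4 to 124 CPM on galactose and 43.7 to 180.1 CPM on glucose. Of 5 distal markers 4 were tested and all 4 were lower, with Fabp6 too low to test. The 5 proximal markers were mixed, with 2 higher and 3 lower, 0 of them at an unadjusted p under 0.05 by edgeR. Their summed levels were 313.5 to 465 CPM on galactose and 277.9 to 427.6 CPM on glucose. Over all genes 6773 of 13405 were lower. At an unadjusted p under 0.05 by edgeR there were 0 smooth muscle and 0 distal markers, against 5.72% of all genes that were lower. The part of these cells in the subunit values was not tested.

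Levels among the subunits were compared per length, as mean CPM per kilobase of the longest annotated transcript, which understates genes whose main transcript is shorter. Psmb2 was highest at 98.3, followed by Psma4 at 83.9 and Psmb6 at 80.4. Psme4 was lowest at 11.5, below Psmc2 at 15.9 and Psmb7 at 16.6. Psmb3 stood at 45.9 and Psma7 at 39.6, in the middle of the order. Spread over libraries was widest for Psmb5, Psma7 and Psmb3, with coefficients of variation of 20.2%, 19.3% and 17.7%, and narrowest for Psmc1 and Psmd1, with 6.15% and 6.18%. These values take both diets together, so a difference between the diets adds to them. On galactose alone the SD of log2 CPM was also widest for Psmb5, Psma7 and Psmb3 (0.35, 0.25 and 0.23). On glucose alone it was widest for Psma1 (0.23), with Psmb3 at 0.14.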

How the data were processed

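STAR, HTSeq and build GRCm39 are named in the submitters' processing notes. Versions, annotation, strand setting and read filters were not given in the sources used here. Raw read counts per Ensembl gene and mouse were deposited by the authors. The 5 rows that name no gene held 13.5% of reads (8.64% aligned to more than 1 place) and were left out. Symbols came from a supplied table (52083 of 55416 rows), and transcript lengths by identifier from a GENCODE annotation of GRCm38.

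The diets were compared with edgeR 4.0.16 (R 4.3.3): filterByExpr, TMM scaling, a quasi-likelihood F test of diet, the single term, over 23 libraries, and Benjamini-Hochberg adjustment over 13405 genes at 0.05. CPM are TMM-scaled, and log2 CPM used a prior count of 2. The fit was tested on simulated data. Replicates are numbered in accession order, so numbers do not pair mice. The members, lists and alternatives were chosen with earlier results of these data known, and no p is given over the members. Genes described in full were Psmb3, the catalytic subunits, the activators and the members of smallest and largest p in each class, and of the pathway lists Psmb8, Psmb9, Psmb10, Pomp, Nfe2l1 and the 2 genes of smallest p in each list. Alternatives were upper-quartile and RLE scaling, DESeq2 1.42.0, limma-voom (limma 3.58.1) with quality weights, other count filters, the length slope or surrogate variables (sva 3.50.0) as covariates, and each library left out in turn. Another listed gene, Paaf1, was not analysed here.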

Additional observations from a re-analysis of the deposited data

How the results depend on the processing

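No paired analysis was possible because the labels give no replicate numbers shared between the diets. The count of genes called over all genes tested was 0 and became 132 with DESeq2, 167 with limma-voom and quality weights, 4 with surrogate variables and 321 without galactose replicates 7 and 12. The subunits called went from 0 to 6, 8, 0 and 12 in the same order, and the pathway genes called from 0 to 2, 4, 0 and 6. With 1 library left out at a time, genes called lay between 0 and 219, subunits between 0 and 8 and pathway genes between 0 and 6, and among these 23 fits calls appeared only with galactose replicate 7 left out. The median of the subunits, 0.16, became 0.0435 with the length slope and 0.0259 with surrogate variables as covariates; it lay between 0.14 and 0.18 with 1 library left out. The cause was not tested. The shift of Psmb3 against the other subunits, 0.20, lay between 0.18 and 0.22 with 1 library left out. Other scalings and count filters called 0 genes. Signs turned with the length slope for Psmb5 (-0.0254), Psmd11 (-0.0212), Psmd14 (-0.0110), Psme4 (0.0115), Rps27a (-0.0768) and Ubb (-0.00124). With surrogate variables they turned for Psma1 (-0.0201), Psma2 (-0.0116), Psma3 (-0.0481), Psma6 (-0.0339), Psmb5 (-0.000786), Psmd8 (-0.0181), Psmd11 (-0.0761), Psmd14 (-0.0584), Psme4 (0.00249), Psmb9 (-0.0286), Psmb10 (-0.0196) and Ubb (-0.0302). Summed over all libraries the subunits held 8871 (Psmb5) to 52028 (Psmd8) counts.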
